A study of Drosophila melanogaster with 4 samples.

Results

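The Antennapedia complex is a cluster of homeobox genes near the centromere end of chromosome arm 3R of the fruit fly Drosophila melanogaster. Its peaks of H3K4me3 (histone H3 trimethylated at lysine 4) were taken as all peaks overlapping 3R 2480000 to 2835000 of FlyBase release 5, a window of 355001 bp that holds lab, pb, zen, bcd, Dfd, Scr, ftz and Antp. Of the 7425 peaks in the deposited list, 1593 lay on 3R and 5 in this window. The study sequenced 2 chromatin immunoprecipitation (ChIP) libraries, for which a polyclonal antibody raised in rabbit was used, and 2 input libraries without immunoprecipitation. All were made from whole embryos aged 8 to 16 h and fixed in 1.8% formaldehyde for 15 min. All 4 libraries came from flies of the strain Y cn bw sp, and share 1 genotype. It has oc[R3.2] and y[1] on the X chromosome, and on the second chromosome sp[1], bw[1], cn[1], CG33964[R4.2], Gr22d[1] and Gr22b[1]. On the third chromosome it has Rh6[1], GstD5[1], MstProx[1], LysC[1] and, within the complex, the allele lab[R4.2]. The outcome is 1 peak list that names no library, so no value below has a replicate error, the depth is unknown, and no test between samples could be made.

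H3K4me3 is laid down mainly around the start of transcribed genes. The homeotic (Hox) genes of the complex encode homeodomain transcription factors that give head and thoracic segments their identity, and each is used in a limited part of the embryo. Their silencing elsewhere depends on Polycomb group proteins, and their continued activity on trithorax group proteins, one of which, Trx, methylates H3K4. Chromatin of whole embryos mixes all of these cells, and a mark in few cells cannot be told apart from a weak mark in many.

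Across the complex itself H3K4me3 peaks were few and mostly low. The peak nearest the proximal edge, at 3R 2481859 to 2483230, was 1372 bp wide with a score of 176.18 and overlapped CG1307. Next to it, 3R 2483476 to 2485688 was 2213 bp wide, had the highest score of the window, 324.31, and overlapped twr and agt, the latter encoding a DNA repair alkyltransferase. Both peaks lie outside the stretch from lab to Antp, in a group of closely spaced genes beside it. Scores are those deposited by the authors on a scale that no source used here states, and they serve below only to order peaks of this list.

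From the first to the last base of the 8 named genes, over 337802 bp, 3 peaks were called. At 3R 2589488 to 2590288 a peak of 801 bp with a score of 18.42 lay inside Ama, which encodes a secreted immunoglobulin-domain protein of the developing nervous system. At 3R 2640270 to 2642079 a peak of 1810 bp with a score of 97.5 lay between Dfd and Scr. It overlapped the long noncoding RNA gene lncRNA:CR42651 and stopped 22 bp short of that gene's end on the Scr side. The microRNA gene mir-10 lies within the bounds of the same noncoding gene, 4966 bp from the peak. The narrowest and lowest peak, at 3R 2757766 to 2758324, was 559 bp wide with a score of 13.16, and lay inside Antp and inside CG46458, a gene annotated within the span of Antp. Together these 3 peaks covered 3170 bp.

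Against all 1593 peaks of 3R, with a median score of 103.72 and a median width of 1291 bp, the Ama and Antp peaks were below both medians, and the peak between Dfd and Scr was below the median score and above the median width. The share of 3R peaks with a lower score was 26.4% for the Ama peak, 49.2% for the peak between Dfd and Scr, and 19.5% for the peak inside Antp. By contrast it was 87.9% for the peak over twr and agt and 62.7% for that over CG1307. In width the peak between Dfd and Scr exceeded 64.2% of 3R peaks, while the Ama and Antp peaks exceeded 34.2% and 25.7%.

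Just outside the window on the proximal side, a peak of 292 bp with a score of 11.48 ended at 2474313 inside Taf1, which encodes a subunit of the general transcription factor TFIID. A peak of 1399 bp with a score of 187.91 lay 60 bp beyond it. On the distal side the next peak began at 2891818, which is 66868 bp past the end of Antp. It opened a dense group over CG1105, CG1965, Ufl1, CG1943, Ref1 and alphaTub84B, the last encoding an alpha-tubulin. In this group a 7202 bp peak at 2893034 to 2900235 scored 354.36 and a 3938 bp peak at 2902255 to 2906192 scored 440.97, the 20th highest score of 3R.

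**Figure D1:**
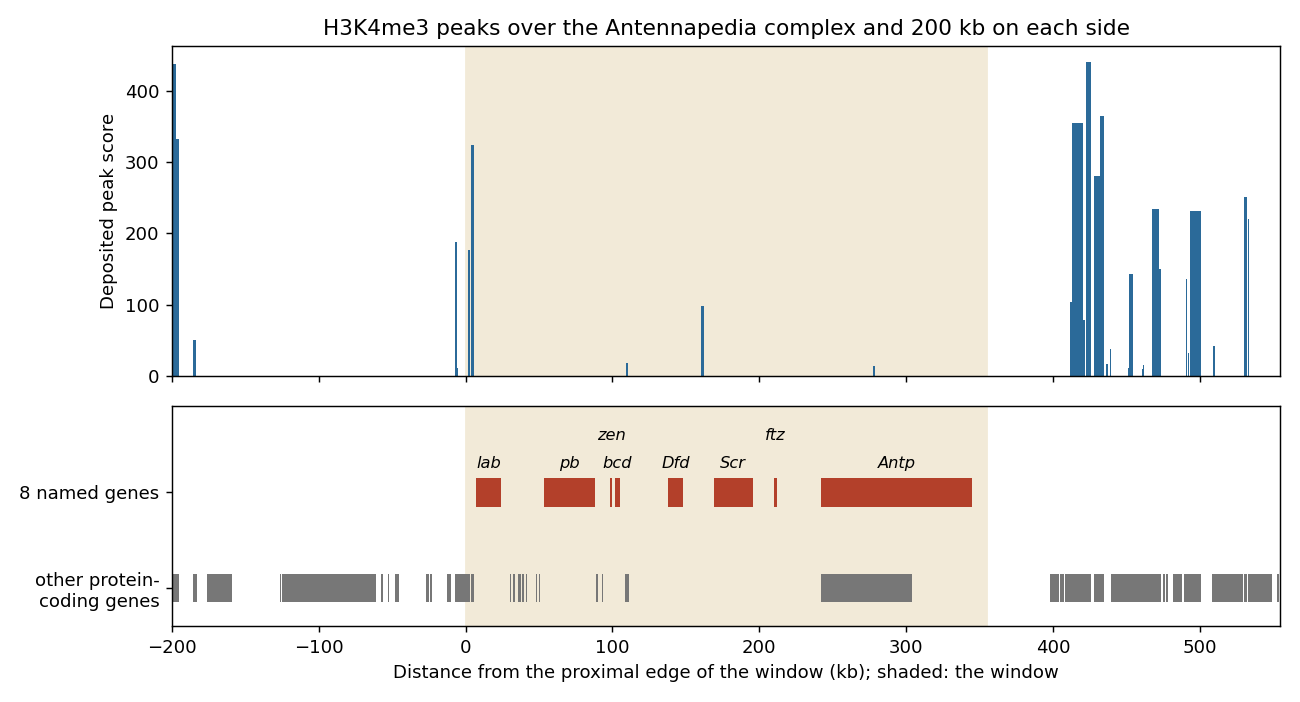
Peaks and genes of the Antennapedia complex window (shaded) and 200 kb on each side, plotted by distance from the proximal edge of the window in kb. Bars in the upper panel are peaks with their deposited score (linear axis), the lower panel shows the 8 named genes above other protein-coding genes, and features narrower than 1 kb are drawn 1 kb wide. The scores inside the cluster are 18.42, 97.5 and 13.16, with peaks of up to 324.31 at its proximal edge and 440.97 beyond its distal end.

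None of the 8 named genes had a called peak at either end. Gene positions came from a RefSeq table on release 6 of the genome, moved to release 5 by the 3R offset of 4174278 bp. That table gives no strand and only the outermost bounds of each gene, so both ends were examined and alternative starts inside a gene were covered by looking through its whole span. A peak on an annotated end was found for 0 of 8 named genes, beside 40.1% of the 3385 protein-coding genes of 3R. The median protein-coding gene of 3R had its nearer end 206 bp from the closest peak, so a distance of up to 500 bp was examined as well. At that distance the count was again 0 of 8, beside 55.5% of the 3R genes. A peak anywhere in the span was found for 1 of 8, Antp, beside 51.4%. All 8 named genes were examined, so these counts are a census of them and carry no interval.

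Among the 5 homeotic genes of the complex the distance from the nearer end to the closest peak ran from 1461 to 35791 bp. For lab, which acts in the head and the midgut, it was 1461 bp, and the peak concerned was that over twr and agt. The other end of lab was 18624 bp from any peak. The gene pb, needed for the adult mouthparts, was 21703 bp from a peak at its nearer end and 47834 bp at the other. Dfd, the gene of the mandibular and maxillary segments, was 12120 and 22712 bp away. For Scr, which specifies the labial and the first thoracic segment, the peak between Dfd and Scr lay 6763 bp from the nearer end, with 33624 bp for the other end. In Antp, a gene of the thorax with a span of 102976 bp, the single low peak was 35791 bp from one end and 66626 bp from the other. Starts inside a gene were not available, so whether this peak lies at an inner start of Antp could not be told.

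All 5 homeotic genes are 10 kb or longer. Among the 443 protein-coding genes of 3R of that length, 28.7% had a peak on an end, 56.2% had one within 500 bp of an end and 59.6% had one somewhere in the span. The homeotic counts were 0 of 5 on an end, 0 of 5 within 500 bp and 1 of 5 in the span.

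The homeobox genes that act earlier in development, or in the mother, were without peaks as well. For bcd, whose maternal RNA patterns the anterior of the embryo, the nearest peak was that in Ama, 4300 bp away. The same peak was 9572 bp from zen, a gene of the dorsal embryo and the amnioserosa, and 19630 bp from its neighbour zen2. For ftz, a pair-rule gene that is later used in the nervous system, the nearest peak was 47967 bp away, the largest distance among the 8 named genes. Only 5.20% of 3R protein-coding genes had their nearer end as far from a peak as ftz, against 39.4% for lab and 31.5% for bcd.

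Between lab and pb lies a cluster of cuticle protein genes, which encode structural proteins of the larval and later cuticle. All 8, Edg84A and Ccp84Aa to Ccp84Ag, were 24479 to 44118 bp from the nearest peak, and 0 of 8 had one within 500 bp of an end, beside 55.5% of 3R genes. Over the whole stretch from lab to Antp, 0 of 20 protein-coding genes had a peak within 500 bp of an end. Within 1000 bp there was 1, Ama, where the peak lay 695 bp inside one end, beside 58.5% of 3R genes. A peak in the span was present in 3 of the 20, Ama, Antp and CG46458, beside 51.4%. The last pair share 1 peak, which cannot be assigned to either gene by its position.

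**Figure D2:**
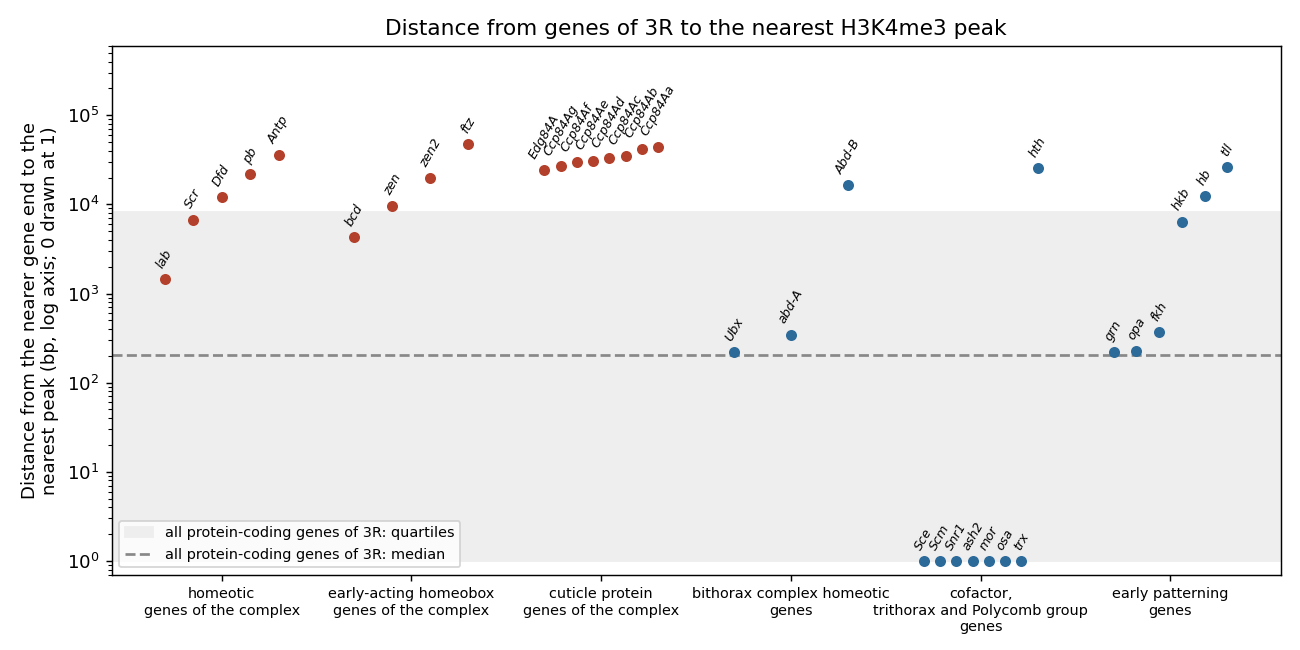
Distance in bp (log axis, 0 drawn at 1) from the nearer annotated end of a gene to the nearest peak, with 1 point per gene of 3R and genes grouped by role. Red points are genes of the Antennapedia complex and blue points other genes of 3R, the band marks the quartiles of all 3385 protein-coding genes of 3R, and the dashed line their median of 206 bp. The named genes of the complex lie between 1461 and 47967 bp, above that median.

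Genes of related function elsewhere on 3R were set beside the complex as values. Of 8 cofactor, trithorax and Polycomb group genes, 7 had a peak on an end, beside 40.1% of 3R genes: trx (score 95.15), osa (410.39), mor (168.82), Snr1 (280.69), ash2 (221.4), Scm (366.07) and Sce (413.25). The remaining one, hth, which encodes a Hox cofactor, had 3 peaks within its span of 132008 bp, the highest with a score of 204.26. Of 6 early patterning genes, 3 had a peak within 500 bp of an end, near the 3R share of 55.5%. These were grn, opa and fkh, whose highest peaks scored 48.78, 11.06 and 27.75. The other members, hb, hkb and tll, were 12366, 6414 and 26031 bp from a peak.

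The bithorax complex, which holds the other Hox genes of the fly, had peaks at Ubx and abd-A. At Ubx a peak of 1191 bp with a score of 26.7 and one of 315 bp with a score of 16.5 lay inside the gene, the latter 222 bp from its distal end. At abd-A a peak of 1129 bp with a score of 40.02 lay 346 bp inside the distal end. Abd-B was 16479 bp from the nearest peak. Peaks within 500 bp of an end were thus present for 2 of 3 homeotic genes there and 0 of 5 in the Antennapedia complex. The share was 55.5% over all protein-coding genes of 3R and 56.2% over those of 10 kb or longer, so 2 of 3 is near it. This measure uses only the outermost ends and misses a peak at a start inside a gene. Anywhere in the span, a peak was present for 2 of 3 and 1 of 5. The 3R shares for that were 51.4%, and 59.6% for genes of 10 kb or longer. With 1 list the difference between the 2 complexes was not tested. The scores of the Ubx and abd-A peaks were also in the lower part of the 3R range, with 32.2% and 36.7% of 3R peaks below the higher Ubx peak and the abd-A peak.

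In number of peaks the complex was among the sparse windows of 3R, but not the sparsest. Its 5 peaks compare with a median of 18 and quartiles of 13 and 26 over 27539 windows of the same size, starting every 1 kb between the outermost peaks of the arm. As few or fewer peaks were found in 4.56% of these windows, which overlap each other and are no replicates. Among 78 windows that do not overlap, the share was 7.69%. The 1257 sparse windows form 12 separate regions of 3R, 1 of which holds the complex, and the emptiest had 1 peak. Peaks covered 1.9% of the window of the complex, against a median of 8.88%, and 3.71% of windows had as low a share, or 6.41% of the windows that do not overlap. The adjoining windows of equal size held 19 peaks on the proximal side and 24 on the distal side, with 9.54% and 14.9% covered. The window centred on the bithorax complex was also on the sparse side. It held 8 peaks, and 11.1% of windows had as few. Peaks covered 4.71% of it, and 16.7% of windows had as low a share.

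Over all 5 peaks, those at the proximal edge included, the window was in the middle of the range in width and score. The median width of 1372 bp was at or above that of 60.4% of windows, and the median score of 97.5 was at or above that of 43.6%. Among the top 50% of peaks by score the width of the window was lower in rank, at or above that of 18.3% of windows. Between the first and last named gene alone the medians were 801 bp and 18.42.

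Gene number was also low, and the share of genes with a peak was lower still in rank. The window held 23 protein-coding genes by their midpoints, against a median of 42.0, and 6.73% of windows had as few. Of these 23 genes, 3 had a peak within 500 bp of an end, or 13.0%, and all 3 (CG1307, twr and agt) lie outside the stretch from lab to Antp. The median share over windows was 54.2%, and 1.67% of the overlapping windows had a share as low. In peaks per gene the window was less extreme, with 0.217 against a median of 0.452, and 7.3% of windows were as low. In the equal-sized window centred on the bithorax complex 11 of 19 genes, or 57.9%, had such a peak, and 58.6% of windows had a share as low or lower. Only 2 of these 11 genes, Ubx and abd-A, were homeotic genes, and the rest were other genes of the window. That window held 8 peaks, 5 of them outside Ubx, abd-A and Abd-B, over genes such as nonA-l, CCT3 and EMC2B. Its share therefore describes mostly the genes beside the Hox genes.

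**Figure D3:**
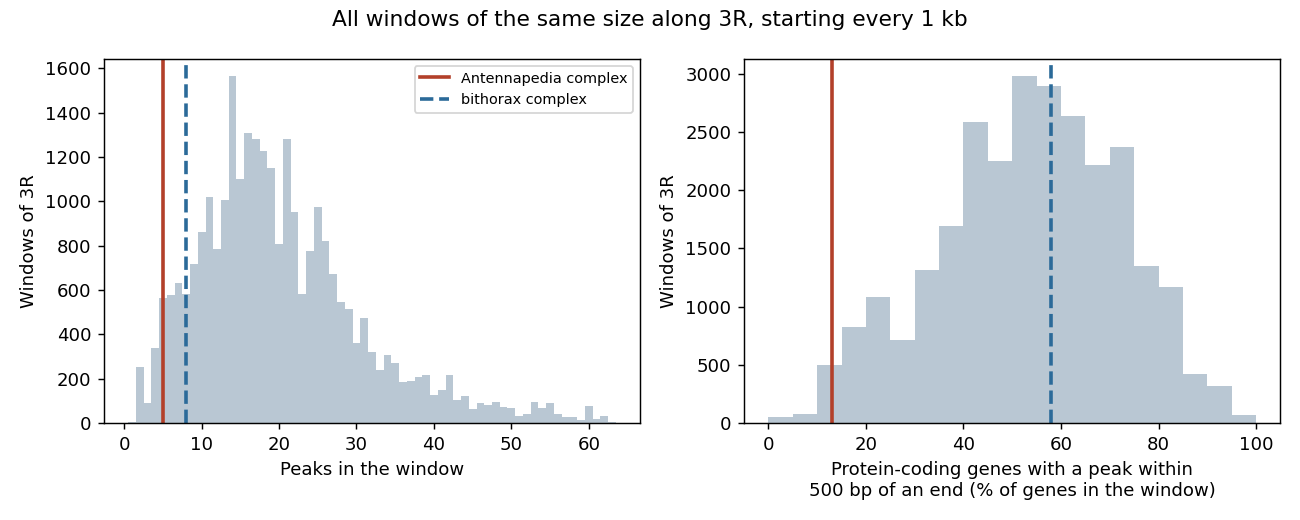
Histograms of 27539 overlapping windows of 355001 bp along 3R, by number of peaks (left) and by the percentage of protein-coding genes with a peak within 500 bp of an end (right). The red line is the window of the Antennapedia complex (5 peaks, 13.0% of genes). The dashed blue line is the window centred on the bithorax complex (8 peaks, 57.9%), where most genes with a peak are not Hox genes. The Antennapedia complex lies near the low end in both panels.

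The 3 peaks divided the cluster into 4 long stretches in which no peak was called. The stretch from 2485689 to 2589487, of 103799 bp, contained lab, pb, zen and bcd whole, and 14 protein-coding genes in all. From 2590289 to 2640269, over 49981 bp, Dfd was the only protein-coding gene lying whole inside. The stretch from 2642080 to 2757765, of 115686 bp, held Scr and ftz and the proximal part of Antp. From 2758325 the rest of Antp lay in a stretch of 133493 bp, of which 76676 bp were inside the window.

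Stretches of this length occurred elsewhere on 3R. Those of the complex ranked 64th, 147th, 54th and 44th among 1592 stretches between neighbouring peaks, whose median length was 1285 bp. The longest within the window, 115686 bp, was reached or exceeded in 52.4% of windows. In the bithorax complex window the longest was 159011 bp, reached or exceeded in 24.7% of windows. Among the top 50% of peaks by score the longest stretch of the Antennapedia complex window was 349312 bp. As long a stretch was found in 0.552% of windows, so this rank depends on the score limit. That limit was 98.41, and the peak between Dfd and Scr, at 97.5, fell just below it. The stretch from lab to bcd held 14 protein-coding genes, while the 65 stretches of 100 kb or longer held a median of 7 and at most 27. As many as 14 genes were found in 14 of these 65.

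Read along the genes in order of their midpoints, the complex lay in a long run of neighbouring protein-coding genes without a peak within 500 bp of an end. This run went from lab past Antp to Mst84B and counted 25 genes over 402944 bp. Among 365 such runs on 3R, with a median of 2 genes, it was the third by number of genes, after runs of 27 and 26. By the bases spanned it was the first. Antp alone spans 102976 bp, and the part of gene length in this rank was not tested.

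**Figure D4:**
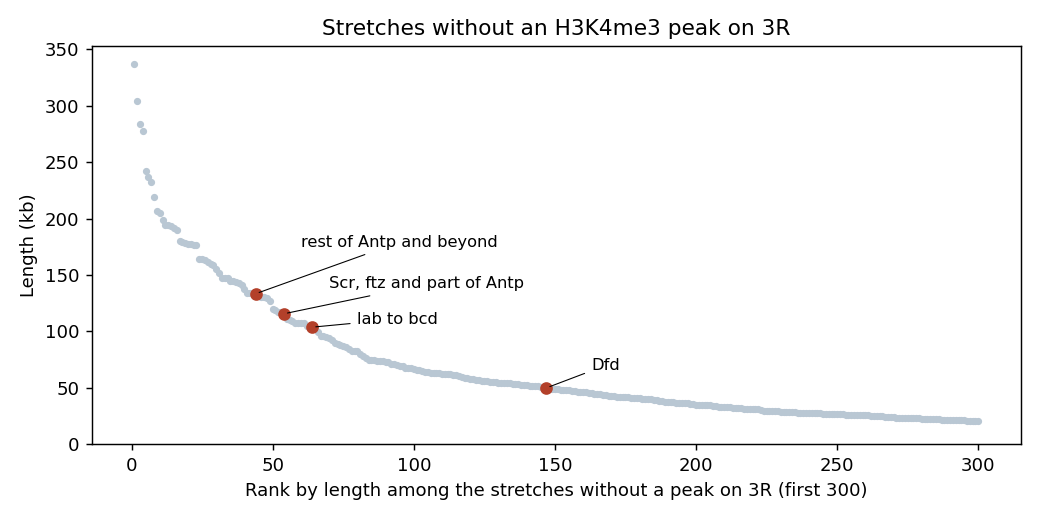
Lengths in kb of the 300 longest stretches of 3R without a peak, by rank. The 4 stretches of the Antennapedia complex (red) rank 44th, 54th, 64th and 147th, with lengths of 133493, 115686, 103799 and 49981 bp, and lie within the range of the other stretches.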

How the data were processed

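The labels describe 2 H3K4me3 ChIP and 2 input libraries, and the deposited file is 1 peak list for the series. The submitters' processing notes name MACS2, BWA, CASAVA (1.7.0.2 and 1.7.0.3) and the genome BDGP5. What each tool did, its settings, how libraries were pooled and their depth are not given in the sources used here. Coordinates follow FlyBase release 5 and peaks were called by MACS, per the file headers and source column. Each peak has a deposited score of unknown scale.

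Peaks overlapping the window by 1 bp or more were taken, and the window was ranked among all windows of its size on 3R as a description. RefSeq genes of 3R (release 6) were moved by the fixed offset of 4174278 bp, and 20 of 4224 genes, which then lay before the arm's first base, were left out. All 8 named genes matched by symbol. As a check of the offset, gene ends were shifted further. The share of protein-coding genes with an end in a peak was 40.1% unshifted, 46.2% and 45.7% at 500 bp to either side, 30.2% and 30.8% at 5000 bp, and 21.6% and 21.2% at 20000 bp, a pattern symmetric about the offset. The planned start sites became gene ends, since the table gives no strand. Planned promoter and homeodomain sequences are not shown. Members, gene lists and measures were chosen with earlier results of these data known. Every one of the 8 genes is described. The distal group of genes, the runs of genes and the window of the bithorax complex were added after values were seen. Statistics were computed in Python 3.11.15 with numpy 2.4.6 and pandas 2.3.3. The peak number, covered share and longest stretch of windows, the overlap of points with peaks, and merging were tested on simulated data. Distances to genes, ranks and runs of genes were not.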

Additional observations from a re-analysis of the deposited data

How the results depend on the processing

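No paired analysis was possible because the list has no column for a library, and no replicate could be left out for the same reason. Of 53 alternatives, 26 left a count within 1.5 times or another value within 10% of its reported value, and 27 moved it further. Some of the 26 could not move. All 5 peaks lie wholly inside the window, so asking for that repeated each value, and merging near peaks could not change the longest empty stretch. The tally is therefore no measure of robustness. Kept to the top 75% of all peaks by score, the window held 3 peaks covering 1.52%, with median width 1810 bp, median score 176.2 and a longest empty stretch of 192921 bp. In the top 50% these were 2 peaks, 1.01%, 1792 bp, 250.2 and 349312 bp, and both remaining peaks lie proximal to lab. The 2 score limits, 19.04 and 98.41, lay just above the Ama peak at 18.42 and the peak between Dfd and Scr at 97.5. Merging peaks closer than 500 or 1000 bp gave 4 peaks with a median score of 57.96. From the first to the last named gene there were 3 peaks covering 0.938%, with medians of 801 bp and 18.42. Among 78 non-overlapping windows, 7.69% had as few peaks and 6.41% as little covered. With the top 50% of peaks in every window, 2.27% of windows had as little covered, 18.3% as low a median width, 53.2% as low a median score, and only 0.552% as long an empty stretch. That last rank therefore depends on the score limit. Members with a peak at an end were 0 of 8 on an end, within 500 bp and within 1000 bp, the closest being lab at 1461 bp. In the top 50% by score the count was also 0, but a score limit only removes peaks and could not raise it. Of the 8, 1 had a peak anywhere in its span. The 3R share of protein-coding genes with a peak on an end, 40.1%, became 55.5% within 500 bp and 58.5% within 1000 bp. For a peak on an end it was 35.8% over all annotated genes and 28.7% for protein-coding genes of 10 kb or longer. The span from first to last gene (except for the covered share), the 3R ranks within the top 50%, and the counts over whole spans, all genes and long genes were added after values were seen. A place without a peak was below the authors' threshold. Read mappability and depth there were not examined.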
